A study of Mus musculus with 2 samples.

Results

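Cell cycle genes of 5 kinds were described in adrenal gland RNA of young male mice: 16 genes of the G1/S transition and S phase, 16 genes of G2 and mitosis, 2 general proliferation genes (Mki67 and Top2a), 3 D-type cyclins and 3 inhibitors of cyclin-dependent kinases (CDKs). They were chosen by name, and all 40 were found among the 55536 annotated genes of the gene tables. The series holds 2 total RNA libraries of adrenal gland, a single group of male B6CASTF1/J mice (B6Cast F1, a cross of a C57BL/6J and a CAST/EiJ parent) aged 10 days, with no treatment given in the labels. Each library started from 300 ng of total RNA, with ERCC synthetic transcripts added. They are called replicate 2 and replicate 1 after the labels, which give these as biological replicate numbers. The characteristics number the animals 04 for replicate 2 and 03 for replicate 1, but both library descriptions carry 03 and the donor identifier is shared, so the spread between these samples may be technical. With 1 group there was no contrast between conditions and no p-value. The questions were how high each phase stands and how far the replicates lie apart.

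A dividing cell commits to replication when D-type cyclins with CDK4 or CDK6, and then cyclin E with CDK2, phosphorylate the retinoblastoma protein and free E2F factors, which switch on genes for origin licensing, DNA synthesis and nucleotide supply. Genes of G2 and mitosis follow later, through the MuvB complex with B-MYB and FOXM1, which acts at cell cycle homology region (CHR) elements and, with NF-Y, at CCAAT boxes. p21, p27 and p18, encoded by Cdkn1a, Cdkn1b and Cdkn2c, restrain the kinases. In the adrenal gland of young animals, growth of the cortex is known to rest largely on cells under the capsule.

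The gene tables held 38984236 expected counts in replicate 2 and 36982665 in replicate 1, with 0.879% and 0.892% of them on spike-ins in replicates 2 and 1. Markers of adrenal cortex (12 genes such as Star and Cyp11a1) summed to 6363 TPM in replicate 2 and 7279 TPM in replicate 1, and 14 chromaffin cell markers to 1608 and 1912 TPM in replicates 2 and 1. TPM is a level per transcript length that sums to the same total in each library. Markers of other tissues were detected too, and unevenly: 8 liver markers summed to 13946 TPM in replicate 2 and 4400 TPM in replicate 1, and 7 bone and cartilage markers to 54.8 and 1.44 TPM in replicates 2 and 1. Ratios between the libraries are given on counts scaled by TMM, which sets the bulk of genes level.

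The promoters of S phase and of mitotic members differed in how many held each of 3 motifs, and 8 promoters are shown because they hold the motifs that the phases are known for. The 31 members found in the RefSeq promoter table of GRCm38.p6 (the patch release of mm10) were searched in the 250 bases before the start on both strands. The E2F motif was any of TTTGGCGC, TTTCCCGC, TTTGGCGG and TTTCCCGG. For the CHR the letters were TTTGAA or, in a form that reads the same on both strands, TTCGAA. The CCAAT box was searched by the 5 letters of its name, and no motif holds another inside it. Below are the 150 bases before the start, 5′ to 3′ on the gene's strand, with every match in capitals. The start is that of RefSeq and can lie inside the gene as annotated by GENCODE. The Cdc6 gene begins at 98907801 in GENCODE, so its stretch lies within the gene, as do the Mcm7 stretches that were searched. Mcm6, Mcm5 and Cdc6 license origins, and their stretches are chr1:128359706-128359855 on the minus strand, chr8:75109359-75109508 on the plus strand and chr11:98908001-98908150 on the plus strand. Cdk1, Cdc20, Kif11 and Ccnb2 act in mitosis, and theirs are chr10:69352913-69353062 on the minus strand, chr4:118437344-118437493 on the minus strand, chr19:37376232-37376381 on the plus strand and chr9:70421555-70421704 on the minus strand. Top2a, which untangles replicated DNA, has chr11:99024190-99024339 on the minus strand.
Mcm6: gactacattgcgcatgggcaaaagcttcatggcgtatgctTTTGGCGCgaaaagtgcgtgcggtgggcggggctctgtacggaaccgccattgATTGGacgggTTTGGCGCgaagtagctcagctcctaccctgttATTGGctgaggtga
Mcm5: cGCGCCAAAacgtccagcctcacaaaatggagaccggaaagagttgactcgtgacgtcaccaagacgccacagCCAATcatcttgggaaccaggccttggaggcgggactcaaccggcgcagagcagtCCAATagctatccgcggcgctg
Cdc6: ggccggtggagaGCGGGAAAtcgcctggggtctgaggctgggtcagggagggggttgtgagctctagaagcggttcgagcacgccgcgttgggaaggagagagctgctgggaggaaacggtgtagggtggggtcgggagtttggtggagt
Cdk1: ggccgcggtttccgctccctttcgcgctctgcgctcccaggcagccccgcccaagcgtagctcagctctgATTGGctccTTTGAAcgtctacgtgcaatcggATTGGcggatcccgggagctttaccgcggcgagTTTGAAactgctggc
Cdc20: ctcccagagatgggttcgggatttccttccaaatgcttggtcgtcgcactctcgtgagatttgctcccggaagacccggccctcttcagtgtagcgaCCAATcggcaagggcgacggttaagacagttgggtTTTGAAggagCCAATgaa
Kif11: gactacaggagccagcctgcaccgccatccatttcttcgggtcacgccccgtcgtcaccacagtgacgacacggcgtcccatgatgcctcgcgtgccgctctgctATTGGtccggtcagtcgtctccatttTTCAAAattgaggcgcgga
Ccnb2: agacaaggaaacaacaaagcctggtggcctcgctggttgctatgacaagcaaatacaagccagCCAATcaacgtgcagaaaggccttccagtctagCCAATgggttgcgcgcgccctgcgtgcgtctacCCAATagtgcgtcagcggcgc
Top2a: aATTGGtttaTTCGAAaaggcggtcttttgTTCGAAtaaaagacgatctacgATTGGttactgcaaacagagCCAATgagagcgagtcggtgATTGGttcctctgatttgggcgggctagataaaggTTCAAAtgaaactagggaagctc

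Of S phase members with a promoter, 4 of 13 held an E2F match, against 1 of 12 members of G2 and mitosis and 3.10% of the 27025 genes in the table. The 4 were Mcm5, Mcm6, Mcm7 and Cdc6, and Mcm6 held the same 8 letters at 2 places, 110 and 47 bases before the start. The mitotic member with a match was Birc5, which encodes survivin of the chromosomal passenger complex. A CHR match was found in 2 of 13 S phase members and 6 of 12 members of G2 and mitosis, against 19.6% of all genes. When the first 50 transcribed bases were added, a CHR match was held by 2 of 13 S phase members again, by 10 of 12 members of G2 and mitosis, and by 21.7% of all genes. The 4 that came in by the wider window were Aurka, Bub1, Cenpf and Plk1, with matches 33, 15, 3 and 31 bases into the transcript. E2F matches in the wider window reached 6 of 13 S phase members, with Cdt1 and Mcm3 added, and stayed at 1 of 12 mitotic members, against 3.79% of all genes.

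CCAAT boxes were frequent in both phases. They stood in 8 of 13 S phase members and 11 of 12 members of G2 and mitosis, against 37.5% of all genes. At least 2 of them stood in 5 of 13 S phase members and 8 of 12 members of G2 and mitosis, against 11.5%. Their spacing differed. Neighbouring boxes lay 31 to 33 bases apart, first base to first base, at 0 of 6 distances in S phase members, where neighbours were 40 to 55 bases apart. In mitotic members they did so at 6 of 14 distances, in 5 genes (Cdk1, Ccnb1, Ccnb2, Aurka and Ube2c). Over all promoters 6.41% of distances fell in that range, and 0.966% of genes held such a pair. Beside that 6.41%, 0 of 6 distances says nothing particular about S phase members. Ccnb2 held 3 boxes in a row at steps of 33 bases, visible in its sequence, and Cdk1 a pair 32 bases apart with a CHR between them. Mki67 and Top2a each held at least 2 CHR and at least 2 CCAAT matches and no E2F match, but none of their 7 distances lay between 31 and 33 bases. Cdkn1a and Cdkn2c held no match to any of the 3 motifs before the start. A match is a run of letters and says nothing about binding in these samples. Some stretches also overlap annotated exons. Of the 150 bases before the start, exons covered 150 for E2f1, 134 for Pcna, 117 for Plk1 and 84 for Ccnb1. No promoter of Aurkb, Gins2, Mcm4, Foxm1, Ccnd1, Ccna2, Ccnd2, Tpx2 or Ccne2 was used here.

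**Figure D1:**
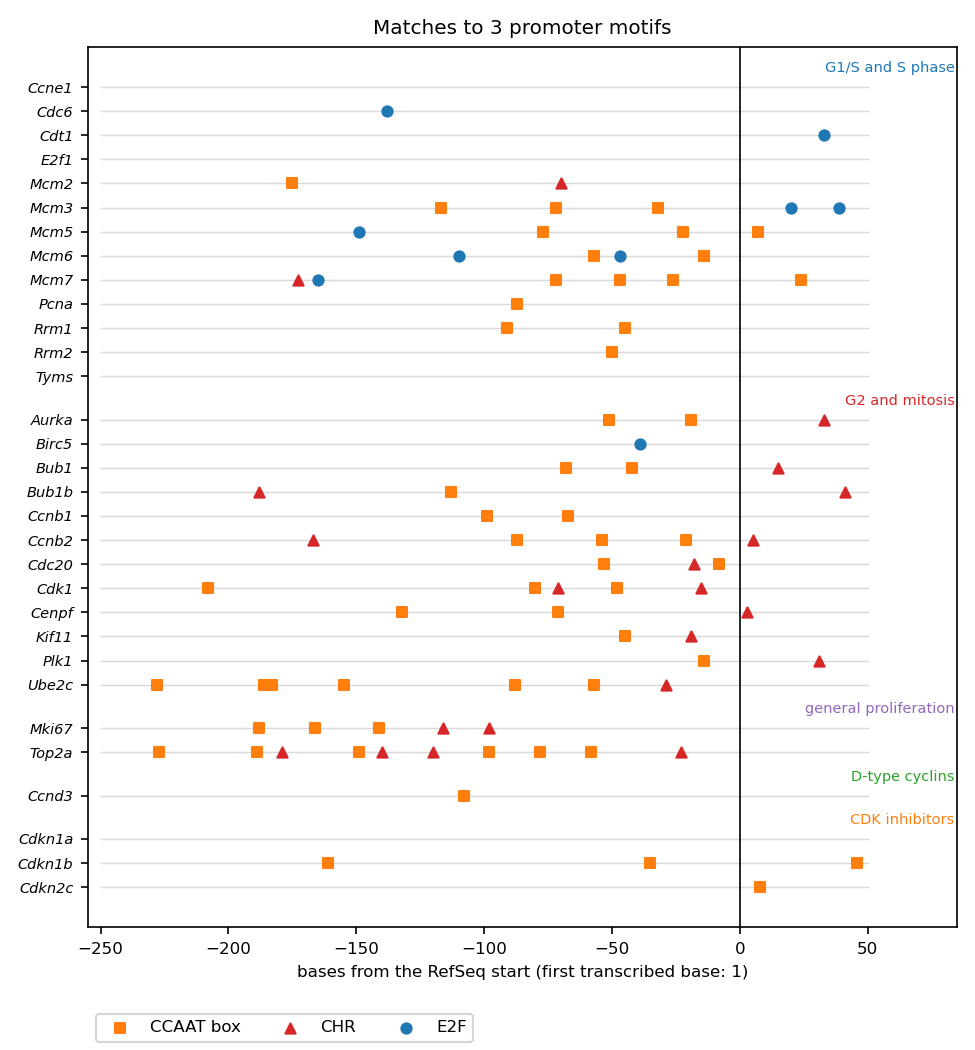
Matches to the E2F, CHR and CCAAT motifs in the promoters of 31 genes, by distance in bases from the RefSeq start (horizontal axis) and by gene (vertical axis), from 250 bases before to 50 after it. CHR matches (triangles) appear in 10 of 12 mitotic members, all but Ccnb1 and Birc5, and CCAAT boxes (squares) before the start in 11 of 12, all but Birc5. E2F matches (circles) sit in S phase members and in Birc5. The matches of 4 genes with several promoters (Mcm7, Ccnd3, Cdkn1a and Cdkn2c) are drawn on a single line.

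The median S phase member stood higher than the median mitotic one in both libraries. The median S phase member had 9.76 TPM in replicate 2 and 11.7 TPM in replicate 1, and the median member of G2 and mitosis had 6.62 TPM in replicate 2 and 7.82 TPM in replicate 1. On the log2(TPM + 0.1) scale the difference between the phases was 0.55 in replicate 2 and 0.58 in replicate 1 (0.57 ± 0.02, SD, n = 2), which is 1.48-fold. Other genes of the same phases, 40 of S phase and 53 of G2 and mitosis, differed less, by 0.14 in replicate 2 and 0.23 in replicate 1. Without Ccne1, Ccne2 and E2f1 the members' difference was 0.97, so its size follows which genes are listed. All 40 members had at least 100 counts on average and at least 1 TPM in both libraries, and for comparison the 12504 protein-coding genes with that many counts had a median of 9.70 TPM.

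**Figure D2:**
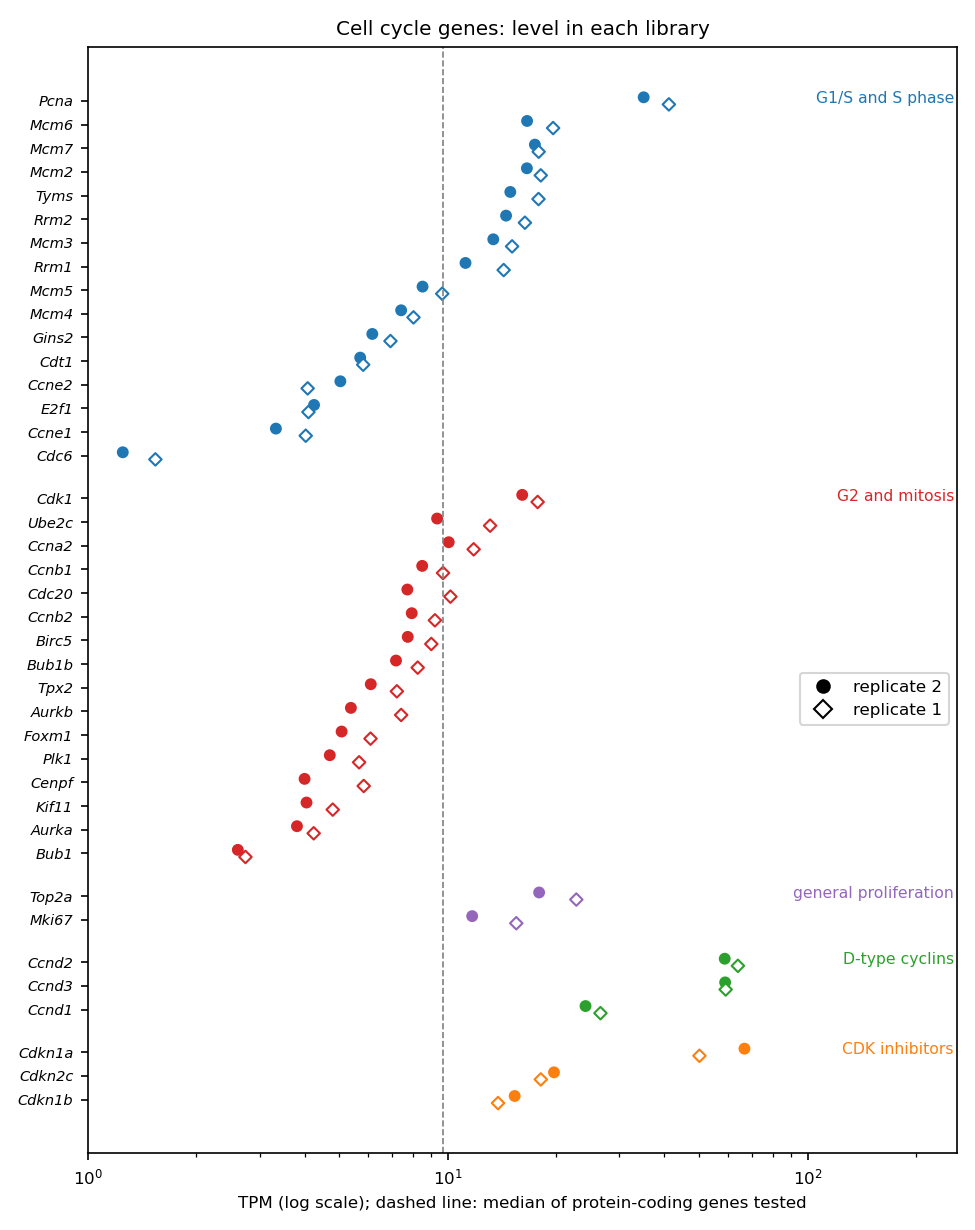
Level of each of the 40 genes in TPM (horizontal log axis) in replicate 2 (filled circles) and replicate 1 (open diamonds), ordered by mean within each kind. D-type cyclins and Cdkn1a lie between 24.1 and 66.7 TPM, right of all members of G2 and mitosis, whose values run between 2.61 and 17.8 TPM.

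Between the libraries, most members of both phases were lower in replicate 2 and the 3 listed inhibitors were higher. After TMM scaling 31 of 40 members were lower in replicate 2 (77.5%), where 50.7% of the protein-coding genes tested were lower. More than 1.2-fold lower in replicate 2 were 10 members (25%), against 7.13% of genes tested. More than 1.2-fold higher in replicate 2 was 1 member, Cdkn1a (2.5%), against 16.1% of genes tested. No member was more than 2-fold apart, as 4.63% of genes tested were. The median log2 ratio over genes tested was -0.00, with quartiles of -0.11 and 0.14. Scaled by library total, 38 of 40 members were lower in replicate 2. That scaling shifts the log2 ratio of every gene by about -0.078 from TMM. The share of genes tested that were lower under it was not computed. By library total the median log2 ratio was -0.20 for S phase members, -0.33 for mitotic members, -0.15 for D-type cyclins and 0.087 for the inhibitors. By TMM these medians were -0.12, -0.25, -0.07 and 0.16. The 95% counting interval of the ratio (exact binomial, counting error only, since reads carried no molecular identifiers) lay below 1 for 23 members and above 1 for 2, and for 21.7% and 24.6% of genes tested. In bulk RNA fewer dividing cells and less of these RNAs per dividing cell cannot be told apart.

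The step between replicates was larger for mitotic than for S phase members. The median log2 ratio, replicate 2 over replicate 1, was -0.12 over S phase members and -0.25 over members of G2 and mitosis, a difference of 0.13 (1.10-fold) that a change of scaling factor cannot move. Summed over each list, the counts of S phase members were 0.916-fold (95% counting interval 0.896 to 0.937) and those of mitotic members 0.819-fold (0.796 to 0.842). Lower in replicate 2 were 12 of 16 S phase members and 15 of 16 mitotic members, against 50.7% of genes tested. More than 1.2-fold lower were 0 of 16 S phase and 8 of 16 mitotic members, against 7.13% of genes tested. By counts no S phase member lay below the mitotic median, and 14 of 16 mitotic members lay below the S phase median. The margin was small, with Tyms at -0.245 and Rrm1 at -0.244 against the mitotic -0.253. With ratios of deposited TPM, Rrm1 (-0.350), Cdc6 (-0.281), Ccne1 (-0.268), Tyms (-0.259) and Mcm6 (-0.239) lay below the mitotic median (-0.232). In the other genes of these phases the difference in median log2 ratio was 0.09. Taken from the deposited TPM in place of counts, the difference between the members' phases was 0.06. It rests on 2 libraries, and how often 2 libraries of the same tissue differ as much was not tested.

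**Figure D3:**
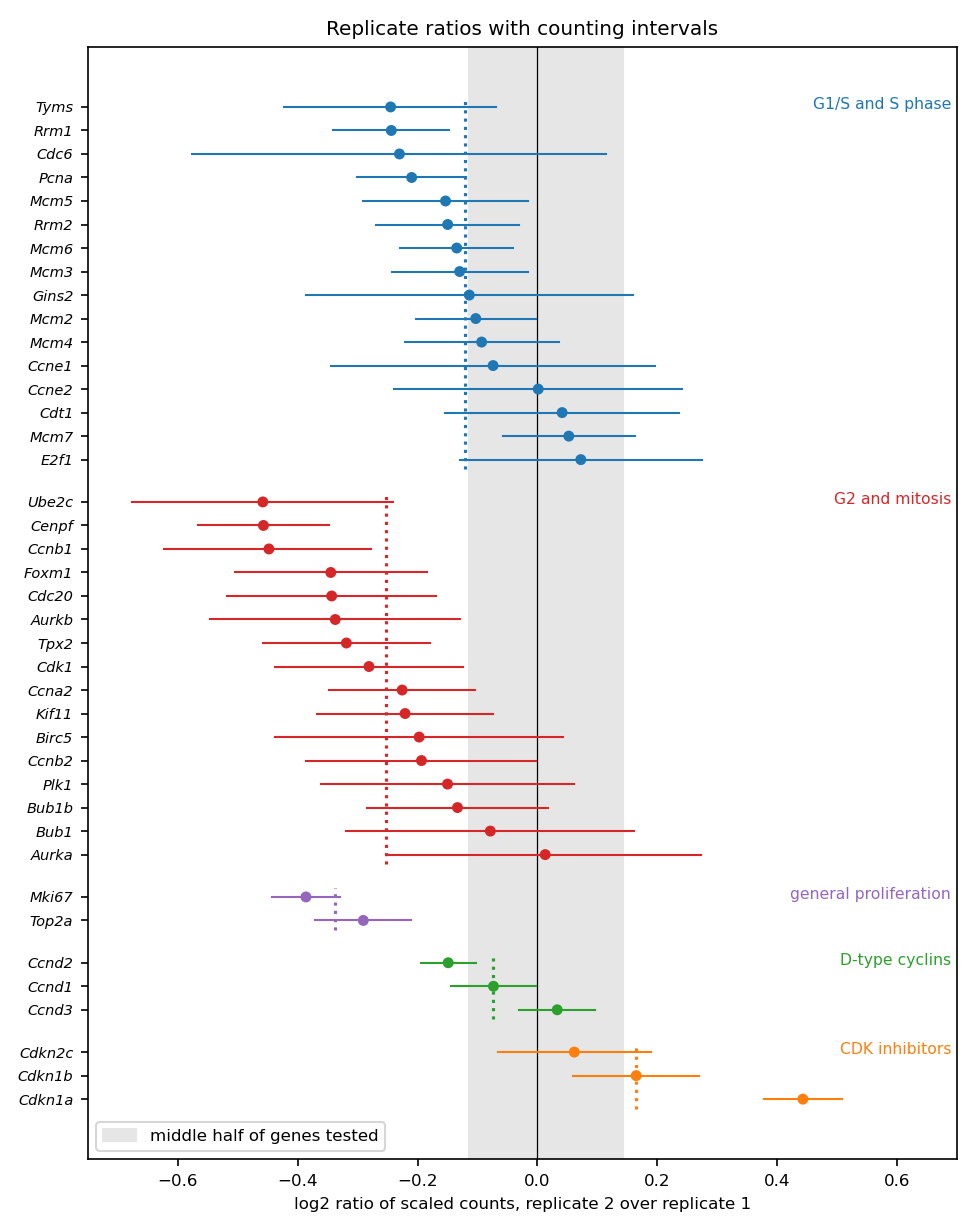
Log2 ratio of TMM-scaled counts, replicate 2 over replicate 1 (horizontal axis), for each gene (vertical axis), with 95% counting intervals as bars and the median of each kind as a dotted line. The grey band spans the quartiles of all genes tested, -0.11 and 0.14. Intervals lie below 0 for 8 of 16 S phase members and 11 of 16 mitotic members, against 21.7% of genes tested.

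Among S phase genes, Pcna, the sliding clamp of DNA polymerases, was the most abundant, with 35.02 TPM in replicate 2 and 41.2 TPM in replicate 1. It was 0.865-fold in replicate 2 (0.812 to 0.921). The 6 subunits of the MCM helicase, which is loaded as a ring of 1 copy each, were not level when all transcripts of a gene were summed. In replicates 2 and 1, Mcm6 had 16.6 and 19.6 TPM, Mcm7 17.5 and 17.9 TPM, and Mcm2 16.6 and 18.1 TPM. Mcm3 had 13.4 TPM in replicate 2 and 15.1 TPM in replicate 1. Mcm5 had 8.51 and 9.65 TPM and Mcm4 7.42 and 8.03 TPM in replicates 2 and 1. Mcm7 was thus 2.35-fold Mcm4 in replicate 2 and 2.23-fold in replicate 1, while the replicates of any subunit were closer than that. Shorter transcripts made up part of this. The main transcript, Mcm7-201, had 10.4 TPM in replicate 2 and 9.97 TPM in replicate 1, and Mcm4-201 carried 100% of Mcm4. Mcm7 was the only subunit higher in replicate 2, at 1.04-fold (0.961 to 1.12), an interval that spans 1, and it was lower there when scaled by library or spike-in total.

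The licensing factors that load this helicase were less abundant. Cdc6 had 1.25 TPM in replicate 2 and 1.54 TPM in replicate 1, from 132 and 155 counts, the lowest of all members. Cdt1 had 5.71 TPM in replicate 2 and 5.82 TPM in replicate 1. Gins2, a subunit of the GINS complex that travels with the helicase, had 6.17 TPM in replicate 2 and 6.93 TPM in replicate 1. All 3 ratios have counting intervals that span 1, so a difference between replicates was not detectable at this depth.

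Enzymes of nucleotide supply were lower in replicate 2. Rrm1, the large subunit of ribonucleotide reductase, had 11.2 TPM in replicate 2 and 14.3 TPM in replicate 1, with a ratio of counts of 0.845 (0.790 to 0.903). Rrm2, its small subunit, had 14.5 TPM in replicate 2 and 16.4 TPM in replicate 1, giving a ratio of 0.901 (0.830 to 0.979). Tyms, thymidylate synthase, had 14.9 TPM in replicate 2 and 17.9 TPM in replicate 1, giving a ratio of 0.844 (0.746 to 0.953). Tyms and Rrm1 had the lowest ratios of the S phase list.

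For the genes that open S phase no step between replicates was detectable at this depth. E2f1, the activator of the program, had 4.25 TPM in replicate 2 and 4.10 TPM in replicate 1, at 1.05-fold (0.914 to 1.21). Ccne1, cyclin E1, had 3.33 TPM in replicate 2 and 4.03 TPM in replicate 1, at 0.950-fold by counts (0.788 to 1.15). Ccne2, cyclin E2, had 288 counts in each library, but 5.03 TPM in replicate 2 and 4.08 TPM in replicate 1. All 3 intervals span 1.

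Of mitotic genes, Cdk1, the kinase that drives entry into mitosis, was the most abundant, with 16.1 TPM in replicate 2 and 17.8 TPM in replicate 1, giving a ratio of counts of 0.823 (0.738 to 0.918). Among its partners, Ccna2, cyclin A2, had 10.1 TPM in replicate 2 and 11.8 TPM in replicate 1, and Ccnb2, cyclin B2, had 7.94 and 9.21 TPM in replicates 2 and 1. Ccnb1, cyclin B1, had 8.49 TPM in replicate 2 and 9.70 TPM in replicate 1. Its counts were further apart than its TPM, 477 in replicate 2 and 652 in replicate 1, giving a ratio of 0.733 (0.649 to 0.825). Foxm1, the factor that drives many of these genes, had 5.07 TPM in replicate 2 and 6.10 TPM in replicate 1, giving a ratio of 0.787 (0.705 to 0.880). The kinase and its 3 cyclins were all lower in replicate 2, with the interval of each below 1.

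The steepest ratios in the list were those of Ube2c, Cenpf and Ccnb1. Ube2c, the ubiquitin-conjugating enzyme of the anaphase-promoting complex, had 9.34 TPM in replicate 2 and 13.1 TPM in replicate 1, at 0.728-fold (0.626 to 0.846). Cdc20, which activates that complex, had 7.72 TPM in replicate 2 and 10.2 TPM in replicate 1, at 0.788-fold (0.699 to 0.889). Cenpf, a large kinetochore protein, had 4.00 TPM in replicate 2 and 5.84 TPM in replicate 1, at 0.728-fold (0.675 to 0.785). Both regulators of anaphase thus stood more than 1.2-fold lower in replicate 2, as did Cenpf.

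The mitotic kinases beside Cdk1 included both Auroras and Plk1. Aurkb, Aurora B of the chromosomal passenger complex, had 5.38 TPM in replicate 2 and 7.42 TPM in replicate 1, giving a ratio of counts of 0.792 (0.685 to 0.914). Aurka, Aurora A of the spindle poles, had 3.81 TPM in replicate 2 and 4.24 TPM in replicate 1, and its counts, 249 and 247 in replicates 2 and 1, gave 1.01-fold (0.843 to 1.21). It was the only mitotic member not lower by TMM-scaled counts, and it too was lower by library or spike-in total. Plk1, Polo-like kinase 1, had 4.70 TPM in replicate 2 and 5.67 TPM in replicate 1, at 0.901-fold (0.778 to 1.04). The counting intervals of Aurkb and Aurka overlap, and whether the ratios of the 2 kinases differ was not tested.

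The remaining mitotic members had ratios between those of Tpx2 and Bub1. Tpx2, which activates Aurora A on the spindle, had 6.11 TPM in replicate 2 and 7.22 TPM in replicate 1, at 0.802-fold (0.728 to 0.883). Kif11, the Eg5 motor that pushes the poles apart, had 4.05 TPM in replicate 2 and 4.79 TPM in replicate 1, at 0.858-fold (0.775 to 0.950). Birc5 had 7.74 TPM in replicate 2 and 9.0 TPM in replicate 1, at 0.872-fold (0.738 to 1.03). Checkpoint genes made up the rest. Bub1b, which encodes BUBR1, had 7.18 TPM in replicate 2 and 8.25 TPM in replicate 1, at 0.912-fold (0.821 to 1.01). Bub1, the checkpoint kinase, had 2.61 TPM in replicate 2 and 2.74 TPM in replicate 1, at 0.947-fold (0.802 to 1.12). The intervals of Birc5, Bub1b and Bub1 span 1.

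The general proliferation genes followed the mitotic list, with narrower intervals than any S phase or mitotic member. Mki67, which encodes the Ki-67 antigen of cycling cells, had 11.7 TPM in replicate 2 and 15.5 TPM in replicate 1, from 4323 and 5655 counts, giving a ratio of 0.765 (0.735 to 0.796). Top2a had 17.9 TPM in replicate 2 and 22.8 TPM in replicate 1, giving a ratio of 0.818 (0.773 to 0.864). Both were more than 1.2-fold lower in replicate 2.

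Among the D-type cyclins, Ccnd2 and Ccnd3 were by the gene tables more abundant than any other member that promotes division. All 3 D-type cyclins differed little between replicates. Ccnd2 had 58.8 TPM in replicate 2 and 64.0 TPM in replicate 1, Ccnd3 had 59.0 TPM in replicate 2 and 59.2 TPM in replicate 1, and Ccnd1 had 24.1 TPM in replicate 2 and 26.6 TPM in replicate 1. Ccnd2 and Ccnd3 did not differ beyond their spread, with Ccnd2 at 0.997-fold Ccnd3 in replicate 2 and 1.08-fold in replicate 1, and each was at least 2.23-fold Ccnd1 in both libraries. By counts, Ccnd2 was 0.902-fold in replicate 2 (0.874 to 0.931), Ccnd1 0.950-fold (0.904 to 0.999) and Ccnd3 1.02-fold (0.979 to 1.07). These genes are also expressed in cells that do not divide.

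The 3 inhibitors among the members went the other way, unlike Cdkn1c below. Cdkn1a had 66.7 TPM in replicate 2 and 50.03 TPM in replicate 1, from 4468 and 3290 counts, giving a ratio of 1.36 (1.30 to 1.42), the highest of the 40. Cdkn1b had 15.3 TPM in replicate 2 and 13.8 TPM in replicate 1, giving a ratio of 1.12 (1.04 to 1.21). Cdkn2c had 19.7 TPM in replicate 2 and 18.1 TPM in replicate 1, giving a ratio of 1.04 (0.955 to 1.14), which spans 1. All 3 were higher in replicate 2, where 50.7% of genes tested were lower, except that Cdkn2c was lower when scaled by library total. Cdkn1a stood apart from the other 2, at 4.35-fold Cdkn1b in replicate 2 and 3.63-fold in replicate 1. The level of Cdkn1a over that of Mki67 was 5.71-fold in replicate 2 and 3.23-fold in replicate 1.

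Other genes of these pathways, 142 in 6 lists, were set beside the members. In 40 other S phase genes the median log2 ratio was -0.11, with 28 of 40 lower in replicate 2, against 50.7% of genes tested. Only 3 were more than 1.2-fold lower (7.5%), close to the 7.13% of genes tested. Those 3, named after their values were seen, were Pole, Tipin and Dbf4. Dbf4, which activates the origin-firing kinase CDC7, was lowest, with 3.26 TPM in replicate 2 and 4.28 TPM in replicate 1, at 0.775-fold (0.659 to 0.911). The most abundant were Slbp, which binds histone mRNA, with 16.6 and 18.5 TPM in replicates 2 and 1, the clamp loader subunit Rfc2 with 17.0 and 15.3 TPM, and the histone chaperone Nasp with 15.4 and 16.2 TPM.

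In 53 other genes of G2 and mitosis the median log2 ratio was -0.20. Lower in replicate 2 were 48 of 53, against 50.7% of genes tested. More than 1.2-fold lower were 19 (35.8%), against 7.13% of genes tested. Nek2, a centrosome kinase, was lowest, with 2.92 TPM in replicate 2 and 4.22 TPM in replicate 1, at 0.737-fold (0.636 to 0.853). Cks2, a small partner of CDKs, was highest, with 13.5 TPM in replicate 2 and 11.8 TPM in replicate 1, and its interval, 0.979 to 1.38, spans 1. The most abundant was Hmgb2, a chromatin protein, with 26.2 TPM in replicate 2 and 30.6 TPM in replicate 1. Hjurp, the chaperone of centromeric histone, had 21.2 TPM in replicate 2 and 21.8 TPM in replicate 1, and the condensin subunit Ncapd2 had 15.6 TPM in replicate 2 and 18.1 TPM in replicate 1. Most of this longer list was thus lower, as its shorter counterpart was.

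**Figure D4:**
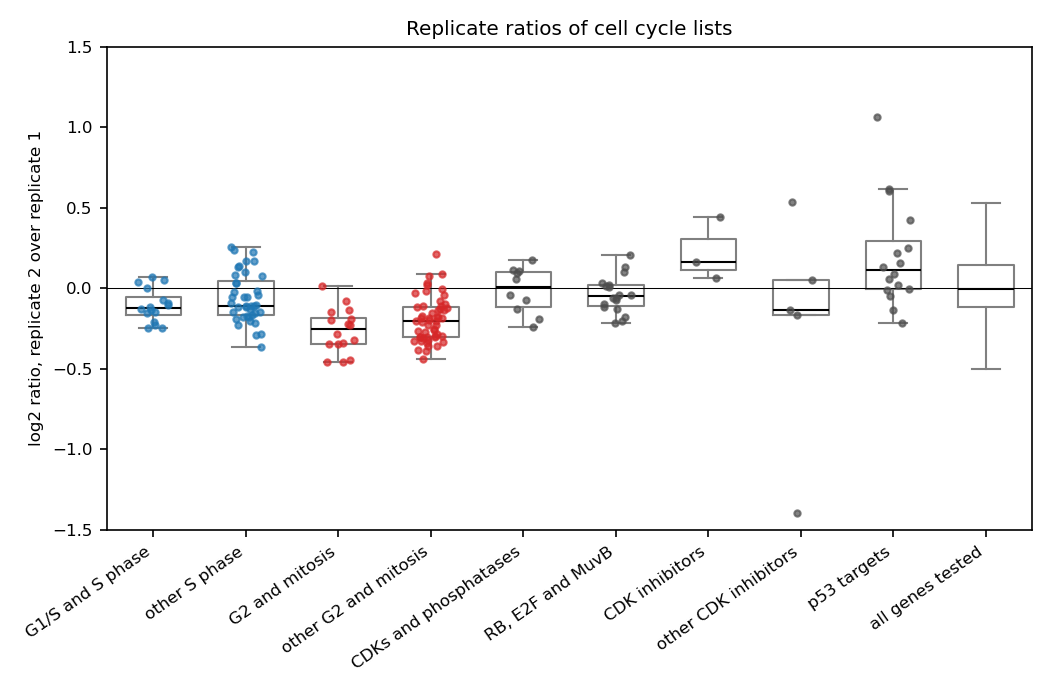
Log2 ratio, replicate 2 over replicate 1 (vertical axis), of each gene (points) in 9 cell cycle lists, with a box for the quartiles and median of each list and of all 12504 genes tested. The boxes of both mitotic lists lie below 0, with medians of -0.25 and -0.20, and the box of the p53 target list lies mostly above it, with a median of 0.11.

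CDKs and the enzymes that regulate them were close to level, with 5 of 10 lower and a median log2 ratio of 0.01 (-0.07 by library total). Cdk4, the partner of D-type cyclins, had 88.6 TPM in replicate 2 and 90.5 TPM in replicate 1, at least 8.04-fold Cdk2 and 11.0-fold Cdk6 in both libraries. Cdk7 had 14.04 TPM in replicate 2 and 13.8 TPM in replicate 1, and its cyclin Ccnh 13.4 TPM in replicate 2 and 13.6 TPM in replicate 1. Wee1 and Pkmyt1 encode kinases that hold CDK1 inactive, and were the highest and lowest of the list at 1.13-fold (1.01 to 1.27) and 0.845-fold (0.701 to 1.02).

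In 18 genes of the RB, E2F and MuvB families the median log2 ratio was -0.05. Of these, 11 of 18 were lower, against 50.7% of genes tested, and none was more than 1.2-fold apart. The histone-binding MuvB subunit Rbbp4 had 47.1 TPM in replicate 2 and 49.2 TPM in replicate 1. Tfdp1, a partner of E2F proteins, had 23.5 TPM in replicate 2 and 26.8 TPM in replicate 1, and its relative Tfdp2 had 16.9 TPM in replicate 2 and 14.5 TPM in replicate 1. Rbl2, the pocket protein p130 of resting cells, was highest at 1.15-fold (1.07 to 1.24), and E2f5, a repressor E2F, was lowest at 0.861-fold (0.713 to 1.04).

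Of 5 other CDK inhibitors, 3 were lower in replicate 2, against 50.7% of genes tested, with a median log2 ratio of -0.13. Only 2 of the 5 averaged 100 counts or more. Cdkn1c, which encodes p57, exceeded every member with 128 TPM in replicate 2 and 142 TPM in replicate 1, and unlike the 3 inhibitors among the members it was lower in replicate 2, at 0.912-fold (0.883 to 0.942). Cdkn2d had 5.58 TPM in replicate 2 and 5.70 TPM in replicate 1. Cdkn3 had 2.95 TPM in replicate 2 and 3.08 TPM in replicate 1, from 73 and 82 counts. Cdkn2a and Cdkn2b, named after their values were seen, were like Cdkn3 below 100 counts in both libraries, at 5 and 51 counts in replicate 2 and 14 and 35 counts in replicate 1. Cdkn1a is a known target of p53. In 16 other p53 targets, 11 were higher in replicate 2 with a median log2 ratio of 0.11 (9 and 0.04 by library total). By TMM 5 of 16 were lower, against 50.7% of genes tested. Of the 16, 13 averaged 100 counts or more, as every gene tested did. More than 1.2-fold higher were 4 of 16 (25%), against 16.1% of genes tested. Those 4, named after their values were seen, were Perp, Btg2, Phlda3 and Eda2r, the last with 87 counts in replicate 2 and 57 counts in replicate 1, under the minimum of 100 for genes tested. Perp, which encodes a membrane protein of cell junctions, had 5.23 TPM in replicate 2 and 2.54 TPM in replicate 1, at 2.09-fold (1.74 to 2.53). The most abundant were Trp53inp1 at 1.12-fold (1.07 to 1.16), Ccng1 at 1.16-fold (1.10 to 1.23) and Bax, a promoter of cell death, at 0.968-fold (0.856 to 1.10). Zmat3 was lowest at 0.861-fold (0.793 to 0.934). Mdm2, Sesn2 and Plk2, also named after their values were seen, lay at 0.999-fold, 0.994-fold and 1.01-fold, with intervals that span 1. Whether p53 targets moved as a group was not tested.

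Markers of other cells moved between the libraries too, where 50.7% of genes tested were lower in replicate 2. Adrenal markers were lower in replicate 2, 12 of 12 for cortex (median log2 ratio -0.14) and 14 of 14 for chromaffin cells (-0.19), close to the step of the cell cycle genes. Endothelial markers were close to level (-0.00, 4 of 8 lower, 7 of 8 by library total, 292 TPM in replicate 2 and 300 TPM in replicate 1). Brown fat markers had a median of -0.01, with 4 of 7 lower (6 of 7 by library total) and 3076 TPM in replicate 2 and 3483 TPM in replicate 1. All 8 liver, 7 skeletal muscle and 7 bone and cartilage markers were higher in replicate 2, with median log2 ratios of 1.76, 1.42 and 5.78. Skeletal muscle markers summed to 873 TPM in replicate 2 and 321 TPM in replicate 1. Smooth muscle markers were higher in 7 of 7, with 165 TPM in replicate 2 and 94.6 TPM in replicate 1.

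Markers of blood and marrow cells differed between the libraries as well, again beside 50.7% of genes tested that were lower in replicate 2. Erythroid markers were higher in 8 of 8 (median log2 ratio 0.33, 7 of 8 by library total), with 2653 TPM in replicate 2 and 2562 TPM in replicate 1. Granulocyte markers were higher in 8 of 8 (1.66), with 97.9 TPM in replicate 2 and 32.2 TPM in replicate 1. Lymphoid precursor markers were mixed. They were higher in 5 of 8 (median log2 ratio 1.01) and summed to 9.56 TPM in replicate 2 and 4.89 TPM in replicate 1, but 3 of 8 were more than 1.2-fold lower, and the median marker had 0.415 TPM in replicate 2 and 0.561 TPM in replicate 1. No marker of these lists was at 0 counts in both libraries, and Igll1 was at 0 in replicate 1. The part of any of these cell types in the levels or ratios of the cell cycle genes was not tested.

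Levels per gene hid non-coding transcripts in some members. In the transcript table made by the same method as the gene table, protein-coding transcripts carried 15.9% of Gins2 TPM in replicate 2 and 14.1% in replicate 1. Its retained-intron transcript Gins2-204 carried 73.4% in replicate 2 and 73.3% in replicate 1. Tyms was the other member under 50% coding in both libraries, with 36.5% in replicate 2 and 33.2% in replicate 1, and Tyms-205, marked for nonsense-mediated decay, carried 46.1% and 44.4% in replicates 2 and 1. The coding transcript of Gins2, Gins2-201, had 0.98 TPM in each library. Over 90% of TPM was coding in both tables and both libraries for 17 of 40 members.

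At least 2 transcripts carried 10% or more of TPM in both libraries in 19 members. In most of them the shares were alike in the replicates, such as Cdk1-202, the main coding transcript, at 71.9% in replicate 2 and 70.6% in replicate 1, and Cdkn1b-201 at 76.1% in replicate 2 and 75.1% in replicate 1. Top2a-201 carried 61.9% in replicate 2 and 60.1% in replicate 1, beside processed transcripts without a reading frame. Ccnb1 was an exception: Ccnb1-201, of 2489 bases, carried 14.5% in replicate 2 and 46.1% in replicate 1, and the shorter Ccnb1-202 (2140 bases) and Ccnb1-207 (1182 bases) 37.4% and 25.4% in replicate 2 and 21.1% and 16.5% in replicate 1. Tpx2-202 and Mcm5-205 also differed, with 55.9% and 49.0% in replicate 2 and 30.9% and 81.6% in replicate 1. For Ccne2, with equal counts, the 432-base processed transcript Ccne2-205 carried 46.0% in replicate 2 and 21.4% in replicate 1. TPM divides by length, so the Ccnb1 and Ccne2 ratios by TPM move with these splits, and their ratios by counts do not.

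The second transcript table, made by another method, named the same leading transcript in both libraries for 34 of 40 members, but differed in scale and in some splits. Its TPM over members was 1.49-fold that of the gene table in replicate 2 and 1.51-fold in replicate 1. Cdkn1a-201 carried 96.0% in replicate 2 and 93.4% in replicate 1 in the first transcript table, but 24.4% and 17.8% in replicates 2 and 1 in the second, where Cdkn1a-205 led with 71.5% and 75.9%. Pcna-203, a processed transcript of 589 bases, carried 1.54% in replicate 2 and 0.76% in replicate 1 in the first table, and 41.9% and 47.1% in the second. Mki67-202, of 575 bases, was at 0% in both libraries in the first table, and at 26.3% in replicate 2 and 10.6% in replicate 1 in the second. Shares of these transcripts are thus not settled by the data, while the gene ratios changed little: 31 of 40 members were lower in replicate 2 by either table.

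**Figure D5:**
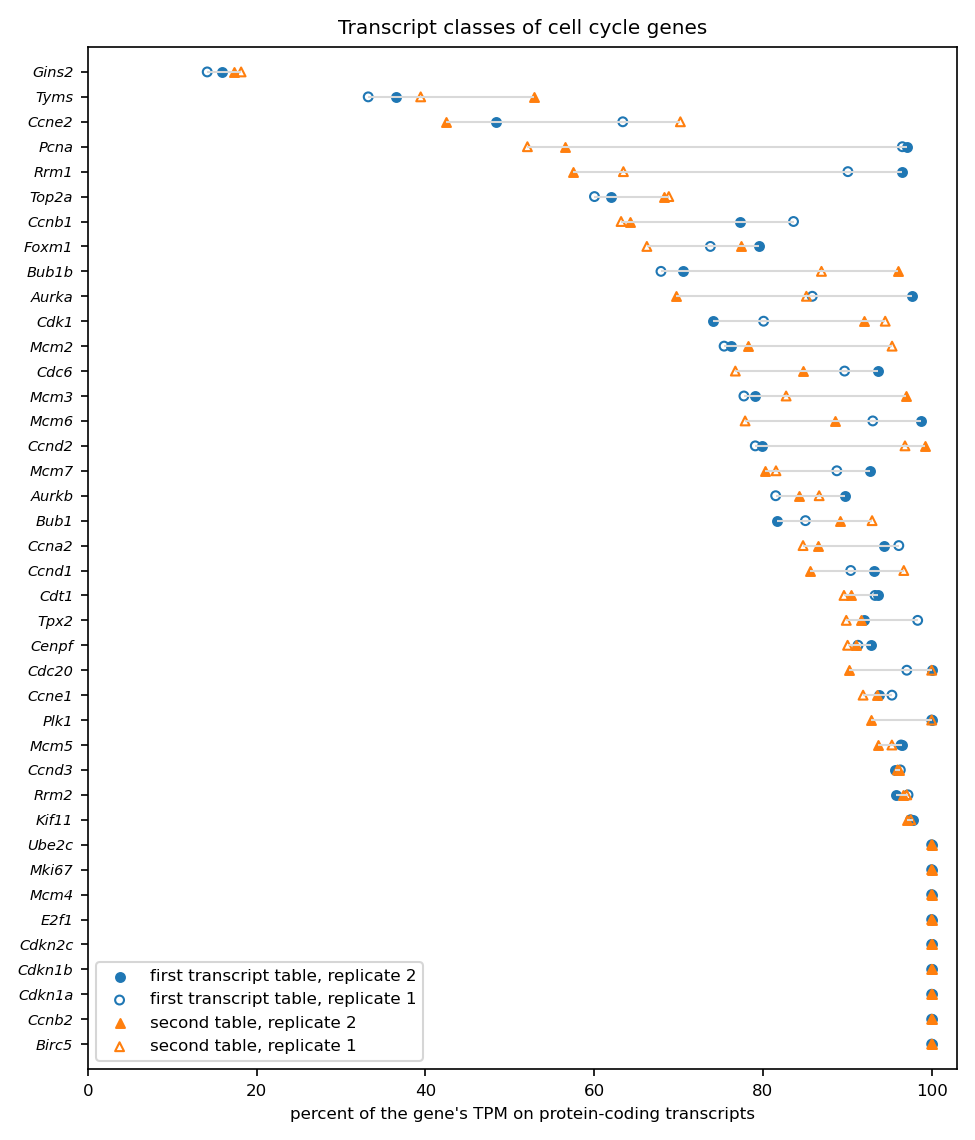
Percent of each gene's TPM on protein-coding transcripts (horizontal axis) for the 40 genes (vertical axis), in the first transcript table (circles) and the second (triangles), with replicate 2 filled and replicate 1 open. Gins2 lies between 14.1% and 18.2% in every table, and Pcna and Rrm1 have circles above 90% and triangles between 52.1% and 63.5%.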

How the data were processed

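Total RNA of adrenal gland was measured in 2 libraries. The deposited gene tables give expected counts and TPM per gene, and per the notes deposited with the files they derive from transcriptome alignments to mm10 with GENCODE M21. Their columns are those of RSEM, and the aligner and the versions are not stated in the labels or headers. The deposited tables also give percent shares of each transcript, and a second transcript table by another method gives estimated counts and TPM with the column names of kallisto. Nuclear protein-coding genes held 34.3% of TPM in replicate 2 and 32.4% in replicate 1. The deposited bounds of TPM were not used. The genome is that of C57BL/6J, and reads of the CAST/EiJ alleles were not separated.

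Members and lists were chosen with earlier results of these data known. Counts were scaled by TMM (edgeR 4.0.16, R 4.3.3). Ratios are replicate 2 over replicate 1, with 0.5 counts added on the log2 scale. Folds and their 95% intervals come from exact binomial (Clopper-Pearson) limits on the unaltered counts and cover counting error only. The deposited standard deviation of read assignment was at most 0.958% of a member's count, and 0 in both libraries for 29 members. Levels are medians of log2(TPM + 0.1), printed as TPM. The background was the 12504 protein-coding genes that averaged 100 counts or more. Thresholds of 1.2-fold and 2-fold are descriptive. With 1 group of 2 libraries no test was run, and the self-check used simulated data. Named were all members and, of each further pathway list, the 3 most abundant genes and the highest and lowest ratio among genes averaging 100 counts or more. The value of 1 gene that this rule takes is not reported here.

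Alternatives were DESeq2 (1.42.0) size factors on rounded counts, library and spike-in totals, the second table, a pseudocount of 1, a prior of 5, means, changed lists and each library alone. Ratios of TPM, levels of coding transcripts and the spacing of CCAAT boxes were added after seeing the data. Promoters came from a RefSeq table. Python 3.11.15 was used, with scipy 1.17.1 for intervals, pandas 2.3.3 and numpy 2.4.6 for tables, and matplotlib 3.10.9 for plots.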

Additional observations from a re-analysis of the deposited data

How the results depend on the processing

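Of 97 recomputed summary values, 61 were labelled unmoved and 36 moved, and none changed its direction. For levels and ratios the limit was the spread between replicates or the counting error. For counts of members and promoters it was a set fold, under which 31 and 38 members counted as unmoved. Some values could not move. A single library's level lies within the spread by construction, and all 40 members passed the filters of 1 TPM and 100 counts. Levels (log2(TPM + 0.1), members) were 3.43 for S phase, 2.87 for G2 and mitosis, 0.57 for their difference, 5.89 for D-type cyclins and 4.25 for the inhibitors, each the mean of 2 libraries. With the second transcript table they were 4.00, 3.31, 0.68, 6.20 and 4.77 in that order. After rescaling TPM over nuclear protein-coding genes, the 4 levels were 5.01, 4.44, 7.47 and 5.83. Means over members gave 3.22 for S phase, 0.41 for the difference, 5.50 for D-type cyclins and 4.66 for the inhibitors. A pseudocount of 1 gave 3.04 for G2 and mitosis, 0.52 for the difference and 5.91 for D-type cyclins. Coding transcripts alone, added after seeing the data, gave 3.06 for S phase, 2.59 for G2 and mitosis and 0.47 for the difference. Without Ccne1, Ccne2 and E2f1 the S phase level was 3.84 and the difference 0.97, the widest of all, and with Mki67 and Top2a counted in mitosis the difference was 0.41. With each library alone, levels ranged from 3.30 to 3.57 for S phase, 2.75 to 2.99 for G2 and mitosis, 0.55 to 0.58 for the difference, 5.88 to 5.89 for D-type cyclins and 4.19 to 4.31 for the inhibitors. Median log2 ratios (replicate 2 over replicate 1) of S phase, G2 and mitosis, D-type cyclins and inhibitors were -0.20, -0.33, -0.15 and 0.087 when scaled by library total, and -0.18, -0.31, -0.13 and 0.11 when scaled by spike-ins. Ratios of deposited TPM, added after seeing the data, gave -0.17 for S phase, -0.12 for D-type cyclins and 0.060 for S phase minus mitosis. The inhibitors' ratio was 0.22 with the second table and 0.22 as a mean. Members lower in replicate 2 numbered 31 to 38 of 40 under all scalings and tables, with 38 for library totals and 36 for spike-ins. The share of all genes tested that were lower was computed under TMM only. By library total 7 members crossed to lower (Mcm7, Cdt1, Ccne2, E2f1, Aurka, Ccnd3 and Cdkn2c), all within 1.2-fold. CHR matches in mitotic promoters numbered 10 with the first 50 transcribed bases and 6 without. Beyond the construction of each alternative, the cause of these shifts was not tested. No paired analysis was possible because the series holds a single group. Members with few counts, such as Cdc6 with 132 counts in replicate 2 and 155 counts in replicate 1, allow no firm ratio at this depth.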
